A study of Rattus norvegicus with 6 samples.

Results

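The genes of cholesterol and fatty acid synthesis were followed in the lateral ventricle choroid plexus of Sprague-Dawley rats at embryonic day 19 (E19), at postnatal day 2 (P2) and in the adult. The 29 genes were listed by their known roles, with earlier results of these data known, as 17 enzymes of the sterol branch, 4 regulators and 8 enzymes of the fatty acid branch. Of these, 28 had a probe set annotated to them alone on the Affymetrix Rat 230 2.0 array, among 14217 such genes, and a gene with several was represented by the one that was brightest on average. Hmgcs1, an enzyme near the start of the sterol branch, was not analysed here. Each stage was measured on 2 arrays, each hybridised with RNA of a separate pool of plexuses from several animals, and the labels name no treatment or genetic change. The methods state that the adults were males and leave the sex of the fetuses and pups unstated, so that sex and age cannot be told apart in a comparison with the adult.

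The choroid plexus is a vascular fold covered by an epithelium that secretes the cerebrospinal fluid and separates it from blood. Cells make cholesterol from acetyl-CoA through mevalonate, farnesyl diphosphate, squalene and lanosterol. They make fatty acids from the same precursor through malonyl-CoA and palmitate, which elongases and desaturases then modify. Transcription of both branches is driven by the sterol regulatory element-binding proteins (SREBPs), which are encoded by Srebf1 and Srebf2 and are held in the endoplasmic reticulum by the INSIG proteins when sterols are plentiful.

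Levels were deposited as MAS5 signal intensities, linear array units scaled to the same trimmed mean of 500 on every array. Median intensities were 124.9 and 125.7 units at E19, 125.9 and 120.7 at P2, against 106 and 100.4 in the adult. Between 50.1% and 53.6% of probe sets reached 100 units. Ttr, which encodes transthyretin and defines the plexus epithelium, lay between 10837 and 14847 units on every array. All 28 genes passed the filter, which asked that the mean of 1 or more stages reach 100 units, as did 10334 genes of the series. Differences are log2 fold changes, given with the standard error (SE) of the limma fit, and were called at a Benjamini-Hochberg adjusted p under 0.05. The number of arrays limits the precision, and the E19 and P2 comparisons share the same 2 adult arrays.

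Most transcripts of the sterol branch and all 4 regulators were less abundant around birth than in the adult, and the fatty acid branch was mixed. At E19, 20 of the 28 genes were lower than in the adult and 2 were higher, where 25.2% of all genes tested were lower and 31.4% higher. At P2, 21 were lower and 1 was higher, where 21.8% of all genes were lower and 28.8% higher. The same 20 genes were lower at both stages: 12 of the 16 sterol enzymes, all 4 regulators, and 4 of the 8 fatty acid enzymes. These 4 include Scd, whose early values all lay under 100 units and which passed the filter through the adult alone. Elovl6 was the single gene higher at both, and Mvk, Mvd, Sqle, Dhcr7 and Acly passed the test at neither. The tissue was measured whole, so that fewer epithelial cells and less RNA per cell cannot be told apart.

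**Figure D1:**
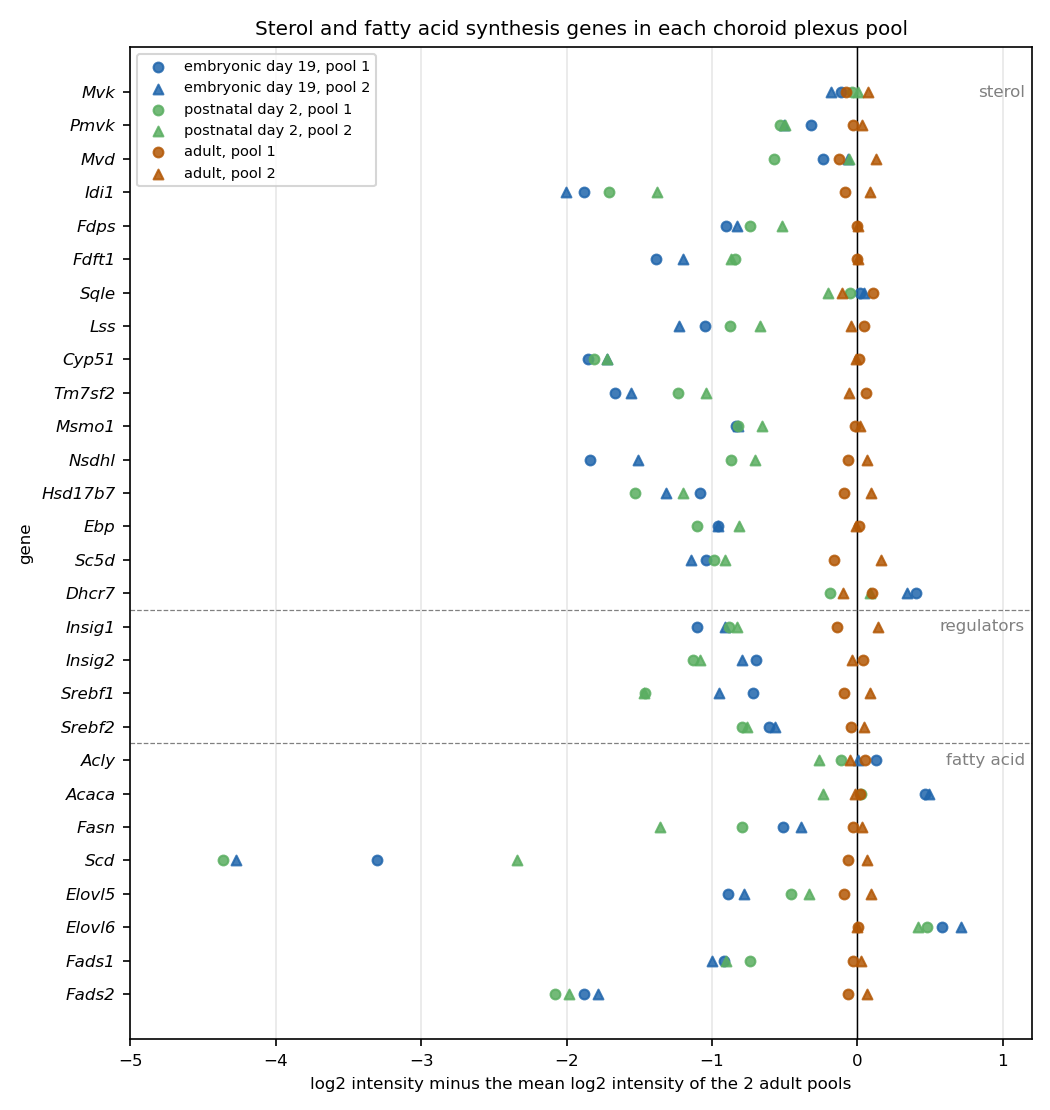
Level of each of the 28 genes on each of the 6 arrays, as log2 intensity minus the mean of the 2 adult pools (horizontal axis), with circles for pool 1 and triangles for pool 2 of a stage. Most E19 and P2 points lie left of the adult points, Elovl6 lies to the right at both stages, and Mvk, Sqle and Acly stay near 0. For Mvd, P2 pool 1 lies left of all other pools.

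The promoter windows of these genes were read for short motifs, as many of them differed from the adult in the same direction. A window ran from 250 bases before to 50 bases after the RefSeq start (rat build GRCr8), and 23 of the 29 genes had one, matched by symbol. Srebf1 had more than 1 window, of which the first listed was used. Windows for Pmvk, Fdft1, Sqle, Acaca, Fasn and Elovl6 were not used here. Searched on both strands, with overlap between motifs allowed, CCAAT, the letters bound by the factor NF-Y, occurred in 19 of the 23 windows (82.6%), against 37.5% of all 33469 windows and 37.7% of the 9702 windows of tested genes. GGGCGG, the letters bound by Sp1, occurred in 18 (78.3%), against 33.1% of all windows and 62.3% of those of tested genes. The form TCACNCCA of the sterol regulatory element occurred in 2 (8.7%), Msmo1 and Srebf2, against 3.9% of all windows and 3.3% of those of tested genes. The palindrome CACGTG occurred in 3 (13.0%), Insig1, Sc5d and Elovl5, against 6.4% of all windows and 9.4% of those of tested genes. CCAAT was found in 15 of the 18 windows of genes that were lower at both stages and in 3 of the 4 windows of analysed genes that were not, so that its presence did not separate them.

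The windows below were picked by hand and include both that hold TCACNCCA. They were not ranked by the difference from the adult, as Fads2 and Tm7sf2, with larger differences than some of them, are not shown. They belong to Idi1 (chr17:66547475-66547774, minus strand), Nsdhl (chrX:155817110-155817409, plus strand), Msmo1 (chr16:29746863-29747162, plus), Srebf2 (chr7:115543057-115543356, plus), Fads1 (chr1:216252442-216252741, plus) and Cyp51 (chr4:30991443-30991742, plus). Capitals mark each CCAAT, which reads ATTGG where it lies on the other strand, and the single TCACNCCA match of Msmo1 and of Srebf2.
Idi1: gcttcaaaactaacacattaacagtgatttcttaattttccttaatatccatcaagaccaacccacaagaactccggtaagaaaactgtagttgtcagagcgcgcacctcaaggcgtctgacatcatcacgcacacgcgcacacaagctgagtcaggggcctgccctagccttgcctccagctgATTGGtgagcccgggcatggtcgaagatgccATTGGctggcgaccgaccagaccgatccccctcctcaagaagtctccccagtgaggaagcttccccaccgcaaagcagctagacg
Nsdhl: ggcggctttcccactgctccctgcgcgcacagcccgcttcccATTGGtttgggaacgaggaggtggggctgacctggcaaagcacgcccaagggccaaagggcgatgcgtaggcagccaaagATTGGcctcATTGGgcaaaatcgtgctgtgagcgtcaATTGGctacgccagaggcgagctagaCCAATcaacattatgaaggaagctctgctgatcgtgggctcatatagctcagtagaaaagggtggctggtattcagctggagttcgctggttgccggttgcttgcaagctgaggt
Msmo1: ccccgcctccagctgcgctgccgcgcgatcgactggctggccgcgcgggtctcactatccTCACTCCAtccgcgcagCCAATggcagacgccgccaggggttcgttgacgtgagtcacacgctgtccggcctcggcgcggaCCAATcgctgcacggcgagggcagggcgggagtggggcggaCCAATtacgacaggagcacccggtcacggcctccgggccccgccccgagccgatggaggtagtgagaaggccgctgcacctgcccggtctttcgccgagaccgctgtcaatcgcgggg
Srebf2: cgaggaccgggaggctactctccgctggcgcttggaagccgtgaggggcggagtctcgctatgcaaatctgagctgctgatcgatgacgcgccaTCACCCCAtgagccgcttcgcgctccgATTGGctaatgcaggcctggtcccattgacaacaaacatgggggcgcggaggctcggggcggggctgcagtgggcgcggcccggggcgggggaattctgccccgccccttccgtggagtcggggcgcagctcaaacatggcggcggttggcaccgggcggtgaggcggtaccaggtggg
Fads1: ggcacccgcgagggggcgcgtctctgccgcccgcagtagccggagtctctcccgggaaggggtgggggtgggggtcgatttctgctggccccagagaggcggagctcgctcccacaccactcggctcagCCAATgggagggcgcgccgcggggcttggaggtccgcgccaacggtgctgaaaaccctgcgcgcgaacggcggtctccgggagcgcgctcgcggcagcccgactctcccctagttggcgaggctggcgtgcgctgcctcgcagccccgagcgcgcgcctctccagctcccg
Cyp51: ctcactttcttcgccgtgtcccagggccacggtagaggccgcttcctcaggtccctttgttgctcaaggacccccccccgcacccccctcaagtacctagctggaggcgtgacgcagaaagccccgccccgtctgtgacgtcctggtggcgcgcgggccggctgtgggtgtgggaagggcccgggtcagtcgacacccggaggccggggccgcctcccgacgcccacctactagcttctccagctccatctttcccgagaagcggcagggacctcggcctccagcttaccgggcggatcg
Nsdhl carried 5 CCAAT matches, with first bases between 208 and 65 bases before the start, Msmo1 carried 3 and Idi1 carried 2. Among windows not printed, Mvk, called at neither stage, also carried 5, and Fads2, lower at both, carried 0. Srebf2 and Fads1 had 1 each, 129 and 121 bases before the start. Cyp51, with one of the largest differences from the adult, had none in its window. These matches are letters only, and no binding was measured.

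The enzymes that lead to farnesyl diphosphate differed among themselves. Idi1, which isomerises isopentenyl diphosphate, stood at 1678 and 1542 units at E19, 1895 and 2383 at P2, against 5837 and 6558 in the adult. Each adult pool was more than double every earlier one, a log2 difference of -1.94 ± 0.14 at E19 (SE, 3.85-fold lower, adjusted p = 0.000503) and -1.54 ± 0.14 at P2 (2.91-fold lower, adjusted p = 0.00124). Fdps, farnesyl diphosphate synthase, measured 1585 and 1669 units at E19, 1776 and 2075 at P2, against 2964 and 2968 in the adult. It was lower at E19 by 1.82-fold (adjusted p = 0.00226), and at P2 by 1.54-fold (adjusted p = 0.00754). Pmvk, phosphomevalonate kinase, was lower by less, 1.33-fold at E19 (adjusted p = 0.0192) and 1.43-fold at P2 (adjusted p = 0.0109). Its E19 call was lost without E19 pool 2 or without adult pool 2, where the adjusted p reached 0.104.

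Mevalonate kinase and mevalonate diphosphate decarboxylase, the enzymes on either side of Pmvk, gave no call. Mvk read 351 and 334 units at E19, 369 and 381 at P2, against 359.9 and 399.6 in the adult, so that the P2 and adult pools overlapped. Its 95% interval allowed a log2 difference from -0.39 to 0.09 at E19 and from -0.26 to 0.23 at P2. The pools of Mvd overlapped between all 3 stages, with 198 and 223 units at E19, 157 and 224 at P2, against 213 and 255 in the adult. The interval was wider for Mvd, from -0.67 to 0.37 at E19 and from -0.83 to 0.20 at P2, so a difference of the size seen for Fdps at P2 lay within it.

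Squalene is formed and oxidised by enzymes whose transcripts differed in course. Fdft1, squalene synthase, had 568 and 648 units at E19, 830.2 and 815 at P2, against 1483 and 1491 in the adult, with no overlap between any stages. It was lower at E19 by 2.45-fold (log2 -1.29 ± 0.10, SE, adjusted p = 0.00053), and at P2 by 1.81-fold (log2 -0.85 ± 0.10, adjusted p = 0.00224). Sqle, squalene epoxidase, a rate-limiting enzyme of the branch, was read at 2512 and 2566 units at E19, 2396 and 2163 at P2, against 2669 and 2309 in the adult. The adult pools enclosed the E19 values and overlapped those at P2, and the log2 difference was 0.03 at E19 (95% interval -0.25 to 0.32) and -0.13 at P2 (-0.41 to 0.16). A difference as large as that of Fdft1 lay outside both intervals. Lss, which closes the rings to lanosterol, gave 311 and 274 units at E19, 350.1 and 405 at P2, against 663 and 624 in the adult. It was lower at E19 by 2.2-fold (adjusted p = 0.00135), and at P2 by 1.71-fold (adjusted p = 0.00555).

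Among the enzymes that turn lanosterol into cholesterol, 7 of the 8 were lower at both stages. Cyp51, the lanosterol 14-alpha-demethylase, was at 703 and 771 units at E19, 726 and 770.0 at P2, against 2563 and 2519 in the adult. Its earlier pools lay close together and far under the adult ones, 3.45-fold lower at E19 (log2 -1.79 ± 0.09, SE, adjusted p = 0.000199) and, at P2, 3.4-fold lower (log2 -1.77 ± 0.09, adjusted p = 0.00026). Tm7sf2, a sterol 14-reductase, had 252 and 272 units at E19, 341 and 391 at P2, against 835 and 771 in the adult, 3.06-fold lower at E19 (adjusted p = 0.000405) and, at P2, 2.2-fold lower (adjusted p = 0.00139). Msmo1, the C4-methylsterol oxidase, had 2053 and 2075 units at E19, 2072 and 2326 at P2, against 3622 and 3711 in the adult. Msmo1 was thus 1.78-fold and 1.67-fold lower at E19 and P2 (adjusted p = 0.00174 and 0.0031). Nsdhl and Hsd17b7 act with Msmo1 to remove the C4 methyl groups. Nsdhl measured 252 and 318 units at E19, 495 and 554 at P2, against 863 and 945 in the adult, 3.19-fold lower at E19 (adjusted p = 0.000756) and, at P2, 1.73-fold lower (adjusted p = 0.00968). The second probe set of Nsdhl had no step between E19 and P2, and was 2.45-fold lower than the adult at E19 and 2.53-fold lower at P2. Hsd17b7 had no such step either, with 222 and 188 units at E19, 162 and 205 at P2, against 439.6 and 501 in the adult. It was lower at E19 by 2.3-fold (adjusted p = 0.0029), and at P2 by 2.57-fold (adjusted p = 0.0024).

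The last steps act on the ring double bonds. Ebp, the sterol 8,7-isomerase, had 313 units in both E19 pools, 283 and 346 at P2, against 614 and 604 in the adult, 1.95-fold lower at both stages (adjusted p = 0.00227 at E19 and 0.00285 at P2). Sc5d, the lathosterol 5-desaturase, had 702 and 652 units at E19, 727 and 766 at P2, against 1286 and 1614 in the adult, and was 2.13-fold and 1.93-fold lower at E19 and P2 (adjusted p = 0.00225 and 0.00429). Both calls rest on this probe set. The other 2 probe sets of Sc5d gave no call at either stage, with log2 differences of -0.19 and -0.24 at E19 and of 0.11 and 0.43 at P2, and pools that overlapped the adult ones. With all its probe sets averaged, the log2 difference of Sc5d was -0.51 at E19 (adjusted p = 0.0333) and -0.14 at P2 (adjusted p = 0.461). Dhcr7, which makes cholesterol from 7-dehydrocholesterol, was an exception among these enzymes. It had 768 and 734 units at E19, 510.3 and 616 at P2, against 623 and 541 in the adult. Both E19 pools lay above all others, with a log2 difference of 0.37 ± 0.13 to the adult (SE, 1.29-fold, adjusted p = 0.0643) that did not pass the test, and the P2 and adult pools overlapped.

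**Figure D2:**
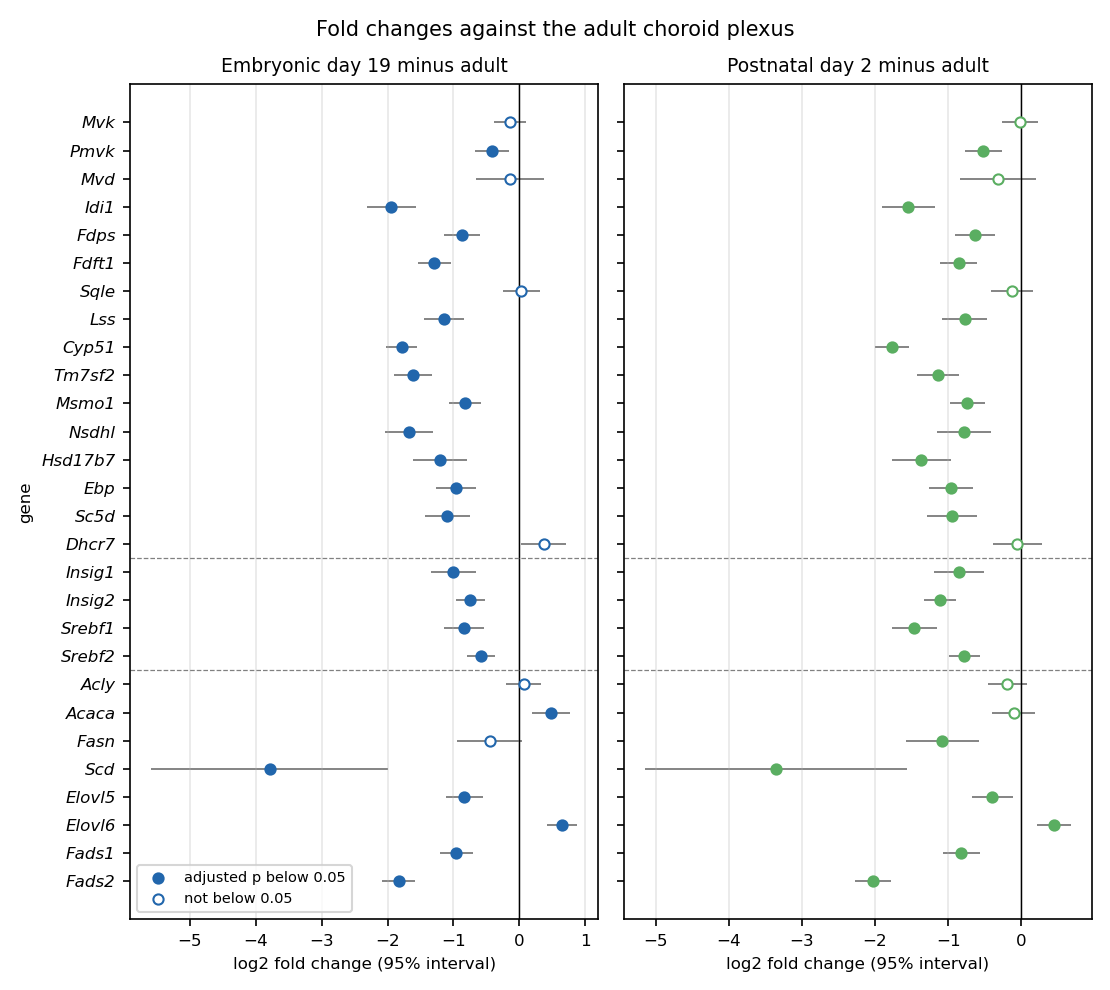
Log2 fold changes of the 28 genes at E19 (left panel) and P2 (right panel) against the adult, with bars for the 95% interval of the limma fit and filled points for an adjusted p under 0.05. Sterol genes stand above the upper dashed line, regulators between the lines and fatty acid genes below, and 20 genes at E19 and 21 at P2 have filled points left of 0.

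All 4 regulators were lower at both early stages, by 1.5-fold to 2.01-fold at E19 and by 1.71-fold to 2.75-fold at P2. Srebf1, whose product favours fatty acid genes, had 2531 and 2156 units at E19, 1519 and 1511 at P2, against 3920.2 and 4435 in the adult. The P2 pools were the lowest of the 3 stages, 2.75-fold under the adult (log2 -1.46 ± 0.12, SE, adjusted p = 0.000852), against 1.79-fold at E19 (log2 -0.84 ± 0.12, adjusted p = 0.00362). Srebf2, whose product favours sterol genes, differed by less, with 683 and 701 units at E19, 599 and 614 at P2, against 1010.1 and 1071 in the adult. It was lower at E19 by 1.5-fold (adjusted p = 0.00353), and at P2 by 1.71-fold (adjusted p = 0.00184). Insig1, itself a target of the SREBPs, had 1022 and 1169 units at E19, 1190.1 and 1235 at P2, against 1985 and 2423 in the adult, 2.01-fold and 1.81-fold lower at E19 and P2 (adjusted p = 0.0029 and 0.00579). Insig2, which has the same retaining function, had 1066 and 998 units at E19, 788 and 816 at P2, against 1774 and 1685 in the adult. The difference was 1.68-fold at E19 (adjusted p = 0.00195) and 2.16-fold at P2 (adjusted p = 0.00078).

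The enzymes that build palmitate did not follow one course. Acly, which makes cytosolic acetyl-CoA for both branches, had 3534 and 3242 units at E19, 2989 and 2694 at P2, against 3354 and 3119.8 in the adult. The E19 and adult pools overlapped, and the 95% interval ran from -0.20 to 0.33 at E19 and from -0.45 to 0.08 at P2 on the log2 scale. Acaca, acetyl-CoA carboxylase, had 1957 and 1989 units at E19, 1445 and 1204 at P2, against 1437 and 1399 in the adult. It was higher at E19 by 1.39-fold (log2 0.48 ± 0.11, SE, adjusted p = 0.019), while the P2 pools enclosed the adult ones (log2 -0.10 ± 0.11, adjusted p = 0.477). The E19 call of Acaca was lost on leaving out an E19 or an adult pool, with adjusted p up to 0.0896. Fasn, fatty acid synthase, had 1499 and 1634 units at E19, 1233 and 837 at P2, against 2096 and 2189 in the adult. All early pools lay under the adult ones, and the difference passed the test at P2 (2.11-fold lower, adjusted p = 0.00924) and not at E19 (1.37-fold lower, adjusted p = 0.104). The lack of an E19 call rests on this probe set. The second probe set of Fasn passed the limma test at E19 (1.76-fold lower, adjusted p = 0.00503). With the probe sets of Fasn averaged, the E19 difference also passed, while 12 of 18 alternatives in processing gave no E19 call. Without either P2 pool, Fasn passed the test at E19 as well.

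The desaturases held the largest differences of the fatty acid branch. Fads1 and Fads2, the delta-5 and delta-6 desaturases of polyunsaturated fatty acids, are neighbours on the same chromosome in RefSeq. Fads2 had 524 and 560.0 units at E19, 455 and 488 at P2, against 1841 and 2016 in the adult, 3.56-fold lower at E19 (log2 -1.83 ± 0.10, SE, adjusted p = 0.000218) and, at P2, 4.09-fold lower (log2 -2.03 ± 0.10, adjusted p = 0.000223). Fads1 had 6179 and 5852 units at E19, 7014 and 6247 at P2, against 11465 and 11909.8 in the adult, 1.94-fold and 1.77-fold lower at E19 and P2 (adjusted p = 0.00126 and 0.00255). Fads3, the next gene beyond Fads2 and no member of the list, had 991 and 950.0 units at E19, 937 and 997 at P2, against 1813 and 1833 in the adult, with adjusted p = 0.000938 and 0.0012. All 3 neighbours were thus lower at both stages. Scd, a stearoyl-CoA desaturase that introduces the first double bond, had 22.6 and 11.6 units at E19, 10.9 and 44.2 at P2, against 214 and 234 in the adult. All 4 early values fell under the 100 units taken as the floor, and Scd passed the filter through the adult alone. The difference is therefore a bound, at least 2.24-fold lower at both stages. The limma adjusted p (0.00855 at E19 and 0.0146 at P2) was computed from the values under the floor and does not test that bound. The P2 call of Scd was lost without adult pool 2 (adjusted p = 0.0546). Its paralogue Scd2, also outside the list, stayed far above the floor at every stage, with 9209.9 and 9871 units at E19, 6271 and 6894 at P2, against 12423 and 12955 in the adult. Scd2 was lower than the adult at both stages, by 1.33-fold at E19 and 1.93-fold at P2 (adjusted p = 0.0174 and 0.00154). It was also lower at P2 than at E19 (adjusted p = 0.0427).

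The elongases moved in opposite directions. Elovl5, which lengthens polyunsaturated fatty acids, had 1899 and 2048 units at E19, 2569.7 and 2793 at P2, against 3299 and 3764 in the adult, 1.79-fold lower at E19 (adjusted p = 0.00275) and, at P2, 1.32-fold lower (adjusted p = 0.0339). The P2 call of Elovl5 was lost without any 1 of the E19 and P2 pools or without adult pool 2, with adjusted p up to 0.127. Elovl6, which lengthens palmitate to stearate, had 1496 and 1644 units at E19, 1396 and 1338 at P2, against 1004 and 999 in the adult. It was higher at E19 by 1.57-fold (log2 0.65 ± 0.09, SE, adjusted p = 0.00336), and at P2 by 1.36-fold (log2 0.45 ± 0.09, adjusted p = 0.0128), and the P2 call was lost without P2 pool 1 (adjusted p = 0.0549).

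Set side by side, the sterol branch lay further under the adult and varied less from gene to gene. Of the 16 sterol enzymes, 75.0% were lower at E19 and 75.0% at P2 and 0 were higher, with 1 higher at E19 by an unadjusted limma p under 0.05 (Dhcr7) and 0 at P2. Of the 8 fatty acid enzymes, 4 were lower at E19 and 5 at P2, with 2 higher at E19 (Acaca and Elovl6) and 1 at P2 (Elovl6). The median log2 difference of the sterol enzymes was -1.03 at E19 and -0.78 at P2, that of the fatty acid enzymes -0.65 and -0.61, and that of the regulators -0.79 and -0.98. Over all genes tested, the median was 0.04 at E19 and 0.05 at P2. The SD over genes at E19 was 0.69 in the sterol branch and 1.45 in the fatty acid branch, where it was 0.88 without Scd. Setting Scd at its bound left the fatty acid medians at -0.65 and -0.61, and without Scd, which drops out under a stricter filter of 200 units, they were -0.45 and -0.40.

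Array by array, the branch medians relative to the adult mean gave the same order. The sterol median lay between -1.05 and -0.69 on the 4 early arrays, lower in both E19 pools than in both P2 pools. The fatty acid median was -0.70 and -0.59 in the E19 pools and -0.60 and -0.62 in the P2 pools. The sterol median was lower than the fatty acid median on all 4 early arrays, by 0.30 and 0.47 at E19 and by 0.26 and 0.07 at P2, where the 2 pools of a stage differed with an SD of 0.07 for the sterol and 0.05 for the fatty acid median. The genes of a branch are not replicates, and no test was made of the difference between the branches. Summed over their probe sets, the sterol enzymes had 12968 and 13019 units at E19, 13522 and 14859 at P2, against 25647 and 26450.3 in the adult.

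**Figure D3:**
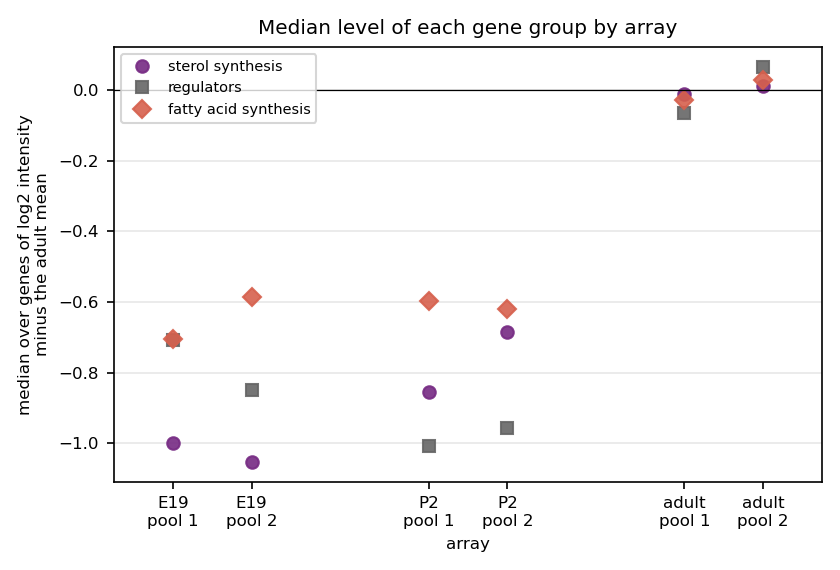
Median over genes of the log2 intensity minus the adult mean (vertical axis) on each of the 6 arrays, for 16 sterol enzymes, 4 regulators and 8 fatty acid enzymes. The sterol points lie under the fatty acid points on the 4 early arrays, between -1.05 and -0.69 against -0.70 and -0.59, and the regulators are lowest at P2.

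Few of the genes differed between the stages on either side of birth. At P2 compared with E19, 1 gene was higher and 2 were lower, where 3.61% of all genes tested were higher and 2.56% lower. By an unadjusted limma p under 0.05 the counts were 6 and 5. The share of all genes at that looser threshold was not computed, so these counts cannot be set against the percentages above. Nsdhl was 1.85-fold higher at P2 (log2 0.89 ± 0.15, SE, adjusted p = 0.0372), Srebf1 1.54-fold lower (log2 -0.62 ± 0.12, adjusted p = 0.0477) and Acaca 1.5-fold lower (log2 -0.58 ± 0.11, adjusted p = 0.0497). Each of these 3 calls was lost on leaving out any single array, with adjusted p up to 0.154 for Nsdhl, 0.206 for Srebf1 and 0.214 for Acaca, and also with the replicate number as a block, where 0 of the 28 genes were called. The second probe set of Nsdhl measured 229 and 216 units at P2 and 233 and 226 at E19, with no such step. That of Srebf1 measured 313 and 241 units at P2 and 343 and 337 at E19, and did not pass the limma test (adjusted p = 0.229).

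The next smallest adjusted p-values across birth did not pass the threshold. Fdft1 (log2 0.44 ± 0.10, SE, adjusted p = 0.0633) and Tm7sf2 (log2 0.48 ± 0.11, adjusted p = 0.0682) were higher in both P2 pools than in both E19 pools, as was Elovl5 in the fatty acid branch (log2 0.44 ± 0.11, adjusted p = 0.0782). The second probe set of Fdft1 had no such difference, with 427 and 424 units at P2 and 412 and 441 at E19. Insig2 (log2 -0.36 ± 0.09, adjusted p = 0.0742) was lower in both. Fasn, with P2 pools as far apart as 1233 and 837 units, had a larger difference with a larger error (log2 -0.62 ± 0.20, adjusted p = 0.121). The median difference was 0.11 for the sterol enzymes, -0.28 for the regulators and -0.20 for the fatty acid enzymes, beside 0.01 for all genes.

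**Figure D4:**
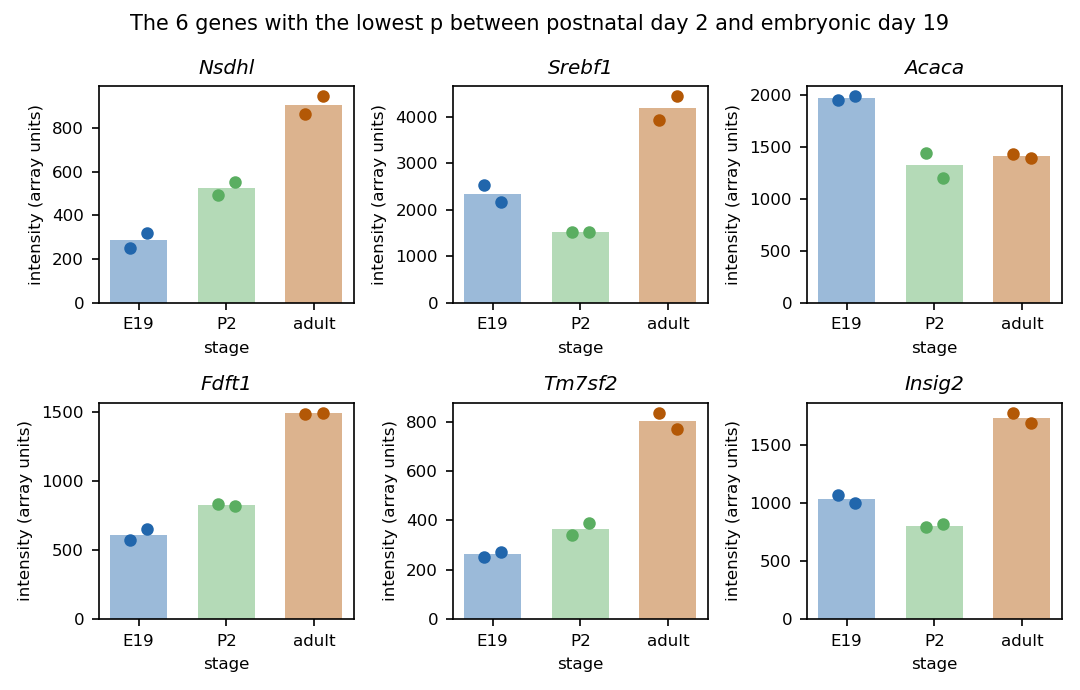
Intensities in array units (vertical axis, from 0) of the 6 genes with the lowest p between P2 and E19, with points for the 2 pools and bars for their mean at each stage. The P2 pools of Nsdhl, Fdft1 and Tm7sf2 lie between their E19 and adult pools, those of Srebf1 and Insig2 lie under both, and the E19 pools of Acaca lie above all others. Fdft1 (adjusted p = 0.0633), Tm7sf2 (0.0682) and Insig2 (0.0742) did not pass the test between P2 and E19.

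Genes that serve the same pathways outside the list varied. Of 9 other sterol and isoprenoid genes tested, 2 were lower at both E19 and P2 (22.2%), Faxdc2 and Por. By limma 0 were higher at either stage (also 0 by an unadjusted p under 0.05). Among all genes tested, the lower share was 25.2% at E19 and 21.8% at P2, near that of these genes, and the higher share was 31.4% and 28.8%. Por encodes the cytochrome P450 reductase that donates electrons to CYP51, and had 291 and 251 units at E19, 290.0 and 235 at P2, against 421 and 527 in the adult (adjusted p = 0.0133 and 0.0127). Of 21 other fatty acid genes, 13 were lower (61.9%) and 2 higher at E19, and 11 were lower (52.4%) and 2 higher at P2. Acsl6 and Acsl3, which activate long-chain fatty acids, had the largest differences of that group. Acsl6 had 244 and 261 units at E19, 225 and 218 at P2, against 3308 and 3343 in the adult, 13.2-fold and 15-fold lower (adjusted p = 5.23e-05 and 8.01e-05). Acsl3 was lower at E19 by 4.39-fold (adjusted p = 0.000154), and at P2 by 3.88-fold (adjusted p = 0.000247). Me1 and Acss2, which supply NADPH and acetyl-CoA, were 3.1-fold and 2.67-fold lower at E19 (adjusted p = 0.000394 and 0.000559). Hacd1 and Elovl2, of the elongation cycle, were the 2 that were higher, by 3.19-fold and 2.46-fold at E19 (adjusted p = 0.000254 and 0.00136).

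The machinery that senses sterols and processes the SREBPs was represented by 10 genes, of which 5 were lower and 1 higher at E19, and 4 were lower and 1 higher at P2. Over all genes tested, 25.2% were lower and 31.4% higher at E19, and 21.8% and 28.8% at P2. Scap, the escort of the SREBPs, and Mbtps1, the first of the proteases that release them, gave no call at either stage, with log2 differences of -0.31 and -0.17 at E19. Mbtps2, the second protease, was higher at E19 by 1.58-fold (adjusted p = 0.0025), and at P2 by 1.3-fold (adjusted p = 0.0173). Prkaa2, a catalytic subunit of AMP-activated kinase, which inhibits acetyl-CoA carboxylase, was 2.97-fold lower at E19 and, at P2, 2.52-fold lower (adjusted p = 0.000214 and 0.000408). Prkaa1, the other catalytic subunit, gave no call at either stage, with log2 differences of -0.06 at E19 and 0.13 at P2 (adjusted p = 0.728 and 0.446).

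Among 24 genes of sterol uptake, efflux, storage and turnover, 6 were higher and 9 lower at E19, and 6 were higher and 11 lower at P2. At E19 this was 25.0% higher and 37.5% lower, beside 31.4% and 25.2% of all genes, and at P2 25.0% higher and 45.8% lower, beside 28.8% and 21.8%. Apoe, which carries cholesterol between brain cells, had 2604 and 2661 units at E19, 3527 and 3548 at P2, against 1254 and 1232 in the adult, higher at both stages (adjusted p = 0.000467 and 0.00026). Soat1, which esterifies cholesterol for storage, was also higher at both, by 1.54-fold and 1.39-fold (adjusted p = 0.00365 and 0.0104). Lcat, which esterifies cholesterol on lipoproteins, was lower at both, with 303 and 256 units at E19, 544 and 470.3 at P2, against 2644 and 2405 in the adult (adjusted p = 0.000123 and 0.00033). Abca1, the cholesterol exporter, was lowest at P2, with 3973 and 3755 units at E19, 1309.8 and 952 at P2, against 2921 and 2583 in the adult. Its P2 level was 3.46-fold under that at E19 (adjusted p = 0.0197) and 2.46-fold under the adult (adjusted p = 0.00363).

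**Figure D5:**
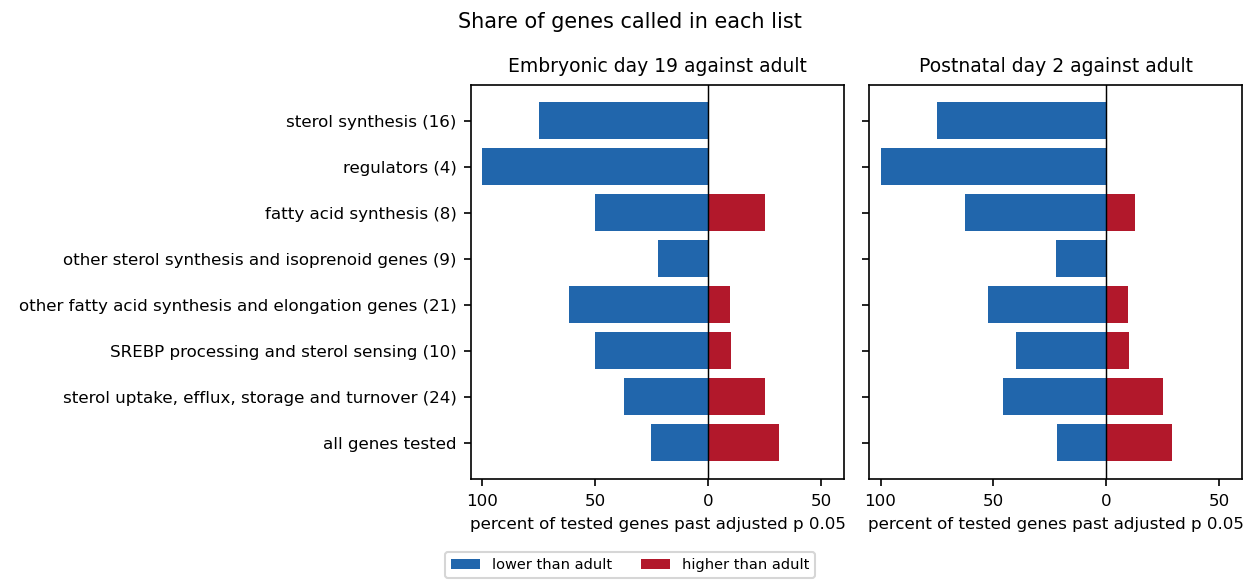
Percent of the tested genes of each list that were lower (bars to the left) or higher (bars to the right) than the adult at E19 and at P2, at an adjusted p under 0.05, with the number of genes tested in brackets. Among the sterol enzymes 75.0% were lower at each stage, among the other sterol and isoprenoid genes 22.2% at each stage, and among all genes tested 25.2% at E19 and 21.8% at P2.

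Markers of other cells and of RNA quality also moved with age. The counts of markers at E19 stand beside 31.4% higher and 25.2% lower among all genes tested. Endothelial markers summed to 9725 to 11237 units on the early arrays, against 2067 to 2084 in the adult, with 10 of 11 tested genes higher at E19. Fibroblast markers summed to 21668 to 26418 units, against 8647 to 9211, with 6 of 10 higher and 2 lower at E19, and cell cycle genes to 13828 to 15305, against 4717 to 4791, with 15 of 15 higher at E19. Epithelial markers summed to 83489 to 91921 units on the early arrays and 113006 to 116715 in the adult, so that the adult mean was 1.36 times that at E19, where the summed sterol enzymes gave 2.01 times. The epithelial list went both ways, with 3 of 12 tested genes higher at E19 (Otx2, Cldn1 and Cldn3), 5 lower and a median log2 difference of -0.21. Prlr, the prolactin receptor, made up much of the gap between the sums, with 635 and 816 units at E19, 940 and 1091 at P2, against 15269 and 16148 in the adult. Whether these shifts had a part in the lower levels of the synthesis genes was not tested. Myelin and oligodendrocyte markers differed between the adult pools, and summed to 1753 to 2544 units on the early arrays against 4910.3 and 2638 in adult pools 1 and 2. Mbp, which encodes myelin basic protein, was at 1989 and 656 units in those pools, against 23.3 and 43.6 at E19 and 77.0 and 5.76 at P2. The summed sterol enzymes were at 25647 and 26450.3 units in adult pools 1 and 2. Without adult pool 1, the sterol median was -1.02 at E19 and -0.80 at P2. Adult pool 2 still had more Mbp than every early pool, so that any part of myelin or oligodendrocytes in the results was not tested. Summed mural cell markers averaged 4.26 times the adult at E19, with 5 of 8 tested genes higher and 1 lower, and erythroid genes 1.5 times, with 5 of 5 higher. Macrophage markers summed to 1.74 times the adult at E19, with 3 of 9 higher and a median log2 difference of 0.04, and Mrc1 had 794 and 698 units at E19 against 39.7 and 25.7 in the adult. Astrocyte markers summed to 1.83 times the adult at E19 although 5 of 8 were lower and 2 higher, with a median log2 difference of -1.67. Most of that sum was Gja1, at 7141 and 7104 units at E19 against 793 and 679 in the adult, whereas Gfap had 11.2 and 10.3 units at E19 against 175 and 112 in the adult. The adipocyte markers went both ways. Adipoq had 63.5 and 45.3 units at E19, 67.7 and 54.3 at P2, against 3501 and 3616 in the adult. Cfd had 191 and 183 units at E19, 159 and 225 at P2, against 15.6 and 3.97 in the adult. Both adult values of Cfd fell under the floor, so that it passed the filter through the early stages alone. Its difference is a bound, at least 1.87-fold and 1.89-fold higher at E19 and P2. The limma adjusted p (0.00339 and 0.00412) was computed from values under the floor and does not test that bound. Plin1 and Fabp4 stayed under 100 units on all 6 arrays. The ratio of 3′ to 5′ probe sets was 1.12 to 1.23 for Gapdh on all arrays, and for beta-actin 2.09 to 2.95 on the early arrays against 4.58 and 5.34 in the adult, and the part of this in the results was not tested.

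A further 17 probe sets matched the genes, of which 12, of 11 genes, passed the filter. They gave the same call as the chosen probe set for 9 of the 12 in each of the 3 comparisons and the opposite call for 0. Second probe sets of Idi1, Cyp51, Srebf1 and Hsd17b7 repeated the lower early levels, for Idi1 with 487 and 503 units at E19, 658 and 850.2 at P2, against 2472 and 2939.9 in the adult. The second probe set of Fasn was lower at P2 than at E19 as well, with 266 and 227 units at P2 and 420.0 and 390.1 at E19 (adjusted p = 0.0428), against 661 and 765 in the adult. It was lower than the adult at both stages by the limma test (adjusted p = 0.00503 at E19 and 0.000905 at P2). The second probe set of Elovl6 passed the test at E19 and not at P2, with 1577 and 1251 units at E19, 1034 and 1135 at P2, against 925 and 657 in the adult.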

How the data were processed

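RNA of 2 pools per stage (E19, P2, adult) was amplified from its 3′ end and hybridised to Affymetrix Rat 230 2.0 arrays. The deposited values are linear signal intensity, computed by the authors with Affymetrix Expression Console and MAS5 (its version is not given in the sources used here). The 2% trimmed mean was 500 on each array. Probe sets with 1 annotated gene were used. Of 31099 probe sets, 57 controls were removed and 17808 that averaged 100 units or more in 1 stage were tested. A linear model with a mean for each stage was fitted to the log2 values of all 6 arrays (limma 3.58.1, R 4.3.3), with 3 residual and 2.15 prior degrees of freedom and Benjamini-Hochberg adjustment over all probe sets tested. A stage with both pools under 100 units gave a bound. The pools of a stage are separate samples. A p-value sets the difference between stages against the spread between pools, taken over all 3 stages and drawn by limma towards a value common to all probe sets.

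The members and all gene lists were chosen with earlier results of these data known. Any member could be named, and other list genes where they passed the test or define a cell type. Replicate numbers did not pair the samples (correlations of deviations between -0.06 and 0.01). On simulated data with 50 probe sets changed at each size among 17808, the E19 comparison recovered 4% of the 1.5-fold, 50% of the 2-fold and 86% of the 4-fold changes, with 5 false calls among 119, where far fewer probe sets were changed than were called in the real comparison. Alternatives were the filter, centring, quantile normalisation, a floor, a pseudocount of 32, 2 stages only, a replicate block, an intensity trend, probe set means, a threshold of 0.01 and each array left out. Promoter windows came from RefSeq (GRCr8).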

Additional observations from a re-analysis of the deposited data

Results flagged for a closer look

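For 3 genes the difference from the adult was not the same at P2 and E19 by the limma test of P2 against E19. Nsdhl had a log2 difference of 0.89 (adjusted p = 0.0372), with 495 and 554 units in the P2 pools and 252 and 318 in the E19 pools, both under the adult. Srebf1 had one of -0.62 (adjusted p = 0.0477), with 1519 and 1511 units in the P2 pools and 2531 and 2156 in the E19 pools, again both under the adult. Acaca, acetyl-CoA carboxylase, had one of -0.58 (adjusted p = 0.0497), with 1445 and 1204 units in the P2 pools, 1957 and 1989 in the E19 pools, and 1437 and 1399 in the adult pools, so that E19 lay above the adult while the P2 pools enclosed it. Each call was lost when any 1 array was left out. The second probe set of Nsdhl had no such step, and that of Acaca was under 100 units on all 6 arrays. That of Srebf1 had a smaller difference that did not pass the limma test (log2 -0.31, adjusted p = 0.229).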

How the results depend on the processing

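No called difference and no branch median changed its sign under any alternative. At P2 against E19 the counts of calls turned from more lower than higher genes (1 higher, 2 lower) to more higher ones under 3 alternatives given below, and rest on few genes. The counts of lower genes against the adult stayed between 19 and 21 at E19 and at P2 with each array left out in turn. With each array left out, the higher genes were 1 to 2 at E19 and 0 to 1 at P2, and 0 genes were called in either direction at P2 against E19. The sterol median then ranged from -1.05 to -0.95 at E19 and from -0.85 to -0.69 at P2, and the fatty acid median from -0.71 to -0.58, from -0.67 to -0.55 and, at P2 against E19, from -0.22 to -0.14. With no filter, 1 gene was higher at E19 and 0 at P2, and 0 were higher and 0 lower at P2 against E19. A threshold of 0.01 gave the same 4 counts. At P2 against E19, fitting 2 stages only or adding a replicate block gave 0 higher and 0 lower, and the block changed no other count. In that comparison 4 genes were higher and 3 lower both with the stricter filter and with values under 100 set to 100, 2 were higher and 2 lower with the pseudocount of 32, and 5 were higher and 4 lower with an intensity trend. Removing Scd through the stricter filter brought the fatty acid medians to -0.45 at E19 and -0.40 at P2. Median centring, which moves all genes by 0.11 at E19 and 0.12 at P2, gave sterol medians of -1.14 and -0.90 and fatty acid medians of -0.75 and -0.73. Averaging a gene's probe sets gave 1 higher gene and a sterol median of -0.91 at E19, and 0 higher and 0 lower at P2 against E19. Averaging tested probe sets alone, chosen after seeing the data, gave a sterol median of -0.91 and a fatty acid median of -0.74 at E19, and 0 higher and 1 lower at P2 against E19. With 2 pools per stage, a gene without a call may still differ by as much as its interval allows.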
